A study of Mus musculus with 36 samples.

Results

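The subcortical maternal complex is an assembly of maternal proteins that the growing mammalian oocyte stores beneath its plasma membrane and passes on to the embryo. The 8 genes followed here were chosen by name as genes that encode or accompany it, 8 of 21968 genes in the deposited count table: Nlrp5, Ooep, Tle6, Khdc3, Padi6, Nlrp2, Nlrp4f and Zbed3. Their levels were measured in single germinal-vesicle oocytes, the fully grown oocytes that are arrested before the first meiotic division. There were 18 oocytes labelled Drp1_KO, from 4 mice called a to d, and 18 oocytes labelled Drp1_WT, from 5 mice called 1 to 5. Drp1 is the dynamin-related GTPase of mitochondrial fission, encoded by Dnm1l. The allele, any Cre driver, the strain and the age of the mice are not stated in the labels. Each mouse gave between 3 and 5 oocytes, and the mouse was the replicate in the edgeR and DESeq2 tests. The limma-voom alternative used single oocytes, with mouse as a random effect.

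Loss of the maternal copy of Nlrp5 (also called Mater), Tle6 or Padi6 halts mouse embryos at the first cleavages. Nlrp5, Ooep and Tle6 form the core of the complex, Khdc3 and Zbed3 bind to it, and Padi6 is needed for the cytoplasmic lattices, fibrous structures that store maternal protein in the egg. Nlrp2 and Nlrp4f belong to the same family of NLR proteins as Nlrp5 and have been placed with the complex in mouse oocytes. The complex has been linked to actin, spindle position and the placement of organelles, mitochondria among them.

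Each oocyte gave between 3178509 and 7104219 counts with the Drp1_KO label, against 4699541 to 7406895 counts with the Drp1_WT label. Dnm1l averaged 201 ± 24.2 CPM (counts scaled to the total of each oocyte) in Drp1_KO mice and 244 ± 66.6 CPM in Drp1_WT mice (SD of mouse means, n = 4 and 5). The fold change was 0.867 with an adjusted p of 0.706 by edgeR, so the targeted transcript did not separate the labels. A count over the whole gene can include exons outside a deletion. Of the Drp1_WT libraries, 5, tubes 11 to 15 of mice 3 and 4, had only 116 to 156 CPM of Dnm1l. The other 13 libraries labelled Drp1_WT had 234 to 322 CPM. Libraries labelled Drp1_KO had 144 to 274 CPM (median 204), and at most 251 CPM without tube 10 of mouse b. The 5 low Drp1_WT libraries thus lay at or below the low part of that range, and the other 13 at or above its upper part. A single Drp1_KO library, tube 10 of mouse b, stood apart from all others in most genes. Tube 29 of mouse 5 (Drp1_WT) stood apart in earlier results of these data and was left out in 1 alternative. Tube numbers 27 to 30 belong to mice d and 5 alone, and the other mice have tubes 1 to 15. All 12 oocyte markers had a median of at least 1 CPM. Their summed levels were 6107 to 26062 CPM in Drp1_KO oocytes (at least 15528 CPM without tube 10) and 14690 to 28876 CPM in Drp1_WT oocytes. Of 12 granulosa markers 6 had a median of at least 1 CPM, summed levels were 55.4 to 121 CPM in Drp1_KO oocytes and 67.9 to 131 CPM in Drp1_WT oocytes, and Foxl2, Amh and Amhr2 had a median of 0. Of 10 immune markers, 3 had such a median, with sums of 28.8 to 707 CPM in Drp1_KO oocytes (at most 78.7 CPM without tube 10) and 14.4 to 121 CPM in Drp1_WT oocytes. Of 8 stromal, endothelial and epithelial markers, 2 had it, with sums of 12.7 to 50.9 CPM in Drp1_KO oocytes and 24.0 to 69.2 CPM in Drp1_WT oocytes. In tube 10 of mouse b, at least 1 CPM was reached by 11 oocyte, 8 granulosa and 10 immune markers, and by 2 of the stromal, endothelial and epithelial ones.

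On GRCm38 (GENCODE M21), Nlrp5 (ENSMUSG00000015721) lies at chr7:23385889-23441922 on the plus strand and Nlrp2 (ENSMUSG00000035177) at chr7:5298547-5351035 on the minus strand. Ooep (ENSMUSG00000032346) lies at chr9:78376109-78378725 on the minus strand and Khdc3 (ENSMUSG00000092622) at chr9:73101836-73104438 on the plus strand. Nlrp4f (ENSMUSG00000032999) lies at chr13:65177111-65205977 on the minus strand and Zbed3 (ENSMUSG00000041995) at chr13:95323612-95337841 on the plus strand. Tle6 (ENSMUSG00000034758) lies at chr10:81590904-81601073 and Padi6 (ENSMUSG00000040935) at chr4:140727355-140742643, both on the minus strand. Khdc3 shares 790 of its 2050 exon bases with Gm20509 on the same strand, so reads there could be split or dropped by the authors' counting. Gm20509 itself had counts in 4 oocytes, at no more than 0.432 CPM. Of the 100-base windows of the longest Nlrp5 transcript, 2.52% also occur in the pseudogene Nlrp5-ps, and 105 exon bases of Nlrp2 lie opposite Gm18757.

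The promoters of 5 members are shown because the results turn on these genes: Nlrp5 and Nlrp2, whose transcripts moved together from oocyte to oocyte, Tle6 and Padi6, which did so too, and Ooep, which moved the other way. The sequences are from RefSeq on GRCm38.p6, on the strand of the gene, from 250 bases before the RefSeq start and ending where the GENCODE exon of the gene begins. Capitals mark CANNTG, the E-box hexamer that basic helix-loop-helix factors such as FIGLA can bind, a pattern that is the same on both strands. The windows are chr7:23385639-23385888 for Nlrp5, chr7:5351036-5351285 for Nlrp2, chr10:81601074-81601150 for Tle6, chr4:140742644-140742893 for Padi6 and chr9:78378726-78378838 for Ooep.
Nlrp5: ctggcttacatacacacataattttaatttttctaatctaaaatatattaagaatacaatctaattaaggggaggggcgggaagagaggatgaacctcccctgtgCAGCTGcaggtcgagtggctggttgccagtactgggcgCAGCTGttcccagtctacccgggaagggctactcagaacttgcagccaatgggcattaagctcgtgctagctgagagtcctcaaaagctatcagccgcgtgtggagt
Nlrp2: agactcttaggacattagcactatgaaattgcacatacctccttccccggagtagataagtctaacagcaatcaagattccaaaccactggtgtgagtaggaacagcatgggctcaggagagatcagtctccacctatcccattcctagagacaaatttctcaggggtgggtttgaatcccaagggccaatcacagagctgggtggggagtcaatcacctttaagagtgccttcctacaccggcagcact
Tle6: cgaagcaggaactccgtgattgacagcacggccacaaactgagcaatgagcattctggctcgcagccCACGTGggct
Padi6: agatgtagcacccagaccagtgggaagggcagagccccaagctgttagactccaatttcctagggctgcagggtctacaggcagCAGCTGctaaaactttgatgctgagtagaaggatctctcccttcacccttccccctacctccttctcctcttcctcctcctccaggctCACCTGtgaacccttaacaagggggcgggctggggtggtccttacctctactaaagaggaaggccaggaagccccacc
Ooep: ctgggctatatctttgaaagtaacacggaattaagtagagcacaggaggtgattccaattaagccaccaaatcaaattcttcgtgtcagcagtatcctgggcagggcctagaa
The printed stretches hold 2 such hexamers before Nlrp5, 0 before Nlrp2, 1 before Tle6, 2 before Padi6 and 0 before Ooep. In full windows of 250 bases, 7 of 8 members had at least 1 CANNTG, with Nlrp2 the exception, and 66.2% of 32851 RefSeq promoters of mouse genes had one. TAATTG, a homeodomain hexamer searched on both strands, stood before 1 member (Ooep), against 7.17% of all promoters. TATAAA, also on both strands, stood before 0 members, against 12.4% of all promoters. A match here is only a match of letters.

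All 8 transcripts were counted in all 36 oocytes, and together they made up 2.01% ± 0.233 of counts in Drp1_KO mice and 2.29% ± 0.273 in Drp1_WT mice (SD, n = 4 and 5). Ranked by mean CPM among all genes, Padi6 was 9th, Ooep 12th, Zbed3 13th, Nlrp4f 34th, Nlrp5 51st, Tle6 59th, Nlrp2 212th and Khdc3 1222nd. All but Khdc3 were thus among the 212 most counted genes. The genes differ in length, which these ranks do not correct for. Levels between genes were therefore compared as TPM, which divides counts by the exon union of each gene before scaling. Ranked by mean TPM over all 36 oocytes, Ooep was 20th, Zbed3 21st, Padi6 23rd, Nlrp4f 71st, Tle6 84th, Nlrp5 116th, Nlrp2 323rd and Khdc3 764th. Without tube 10, Ooep had the highest level in Drp1_KO mice, 6034 ± 579 TPM, against 5712 ± 626 TPM in Drp1_WT mice. Zbed3 followed with 5012 ± 878 TPM in Drp1_KO mice and 5616 ± 1576 TPM in Drp1_WT mice. Padi6 had 4807 ± 1299 TPM in Drp1_KO mice and 6020 ± 1376 TPM in Drp1_WT mice. The SDs of these 3 neighbours overlap in both genotypes. A step below lay Nlrp4f with 1828 ± 277 TPM in Drp1_KO mice and 2049 ± 343 TPM in Drp1_WT mice, Tle6 with 1390 ± 413 TPM and 2049 ± 598 TPM, and Nlrp5 with 1114 ± 258 TPM and 1256 ± 190 TPM, in the same order of genotypes. Nlrp2 had 475 ± 97.6 TPM in Drp1_KO mice and 533 ± 99.2 TPM in Drp1_WT mice. Khdc3 was lowest, with 192.1 ± 67.4 TPM in Drp1_KO mice and 265.7 ± 75.99 TPM in Drp1_WT mice (SD of mouse means throughout, n = 4 and 5). Of the core genes, only Ooep was among the 3 most abundant: Nlrp5 and Tle6 lay below Ooep, Zbed3 and Padi6 in both genotypes.

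**Figure D1:**
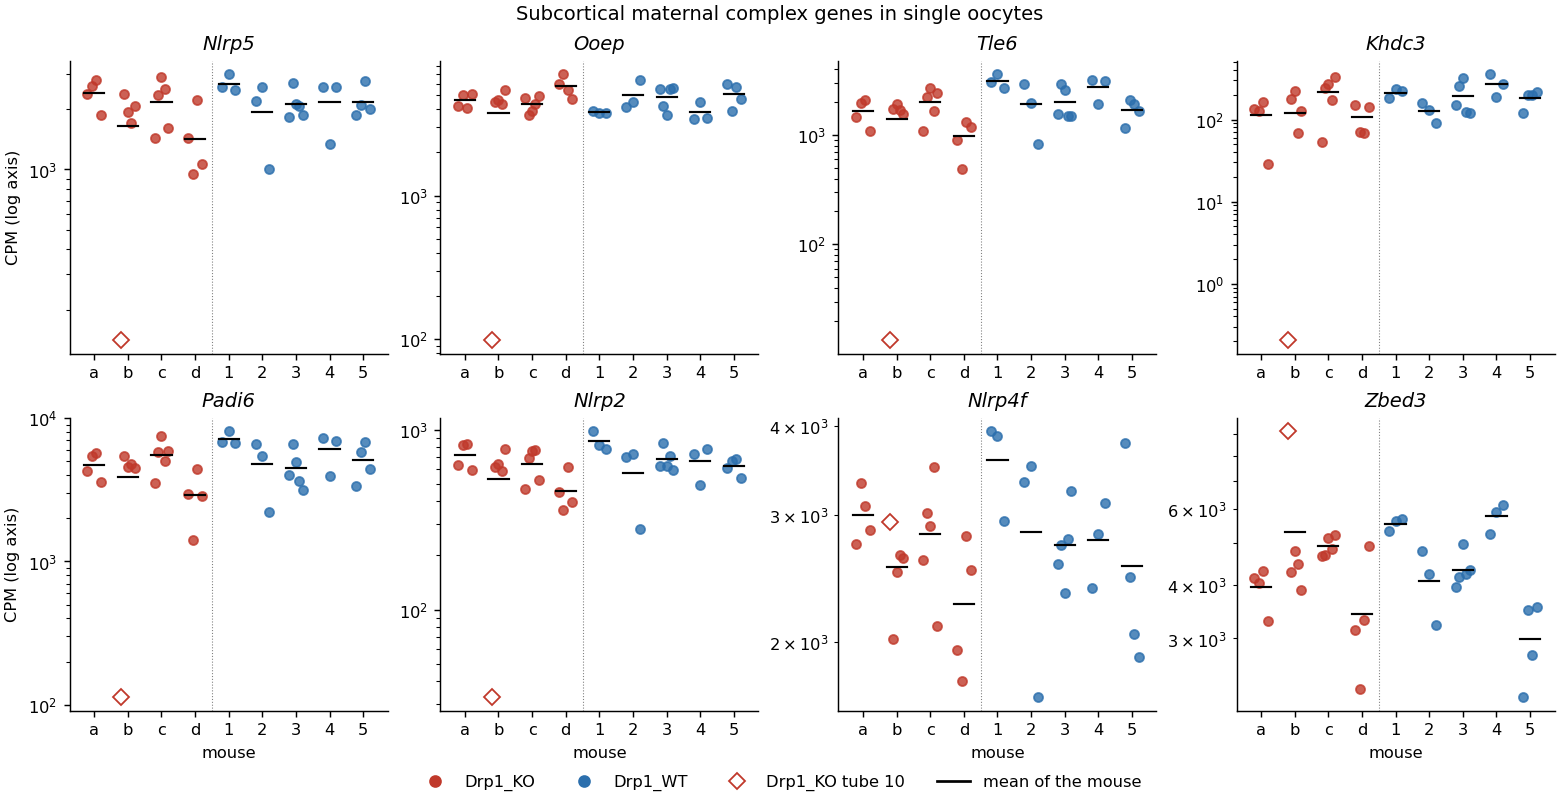
CPM of each of the 8 genes (log axis) in every oocyte, arranged by mouse, with Drp1_KO mice a to d in red at the left and Drp1_WT mice 1 to 5 in blue at the right. Bars mark the mean of each mouse. The open diamond is tube 10 of mouse b, which lies below the other 35 libraries for 6 genes and above them for Zbed3, and the mice of the 2 genotypes overlap in every panel.

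Tle6, a Groucho-like co-factor of the core, had the largest fold difference between genotypes of the 8. Its mouse means were 1649, 1384 (1726 without tube 10), 2015 and 970 CPM in Drp1_KO mice a, b, c and d. In Drp1_WT mice 1 to 5 they were 3105, 1901, 2003, 2723 and 1704 CPM. Single oocytes ran from 13.3 over a median of 1601 to 2690 CPM in Drp1_KO (lowest 489 CPM without tube 10) and from 835 over 2021 to 3572 CPM in Drp1_WT. All 4 Drp1_KO mice lay below the Drp1_WT mean, but mice c and 3 were level and the genotypes overlapped. In the edgeR fit on counts summed per mouse, the log2 fold change was -0.48 ± 0.20 (SE), a fold of 0.718, with p = 0.0318 before and p = 0.504 after Benjamini-Hochberg adjustment over all genes. The sign was negative under all 21 other settings tried, from -0.76 to -0.31, with adjusted p between 0.262 and 0.919. The unadjusted p was under 0.05 in 14 of these 21 settings. Without the 7 libraries that stand apart, the log2 fold change was -0.31 with p = 0.202 before adjustment (edgeR). Without the low-Dnm1l Drp1_WT tubes 11 to 15 alone it was -0.37 with p = 0.125 before adjustment (edgeR). Those 5 libraries had 1909 to 3153 CPM of Tle6 (median 2897), against 835 to 3572 CPM (median 1928) in the other 13 Drp1_WT libraries.

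The other core genes differed less. Nlrp5, the NLR protein of the core, had mouse means of 2412, 1646 (2023 without tube 10), 2161 and 1419 CPM in Drp1_KO. In Drp1_WT its mouse means were 2683, 1929, 2117, 2175 and 2179 CPM. Its oocytes spanned 140, 2001 and 2910 CPM (lowest, median, highest) in Drp1_KO, with 954 CPM the lowest outside tube 10, and 1010, 2161 and 2983 CPM in Drp1_WT. The ranges nearly coincide once tube 10 is left out, and the log2 fold change was -0.10 ± 0.14 (edgeR adjusted p = 0.799). Ooep, a small KH-domain protein of the core also called Floped, had mouse means of 4596, 3785 (4706 without tube 10), 4314 and 5764 CPM in Drp1_KO. In Drp1_WT its mouse means were 3816, 4994, 4887, 3793 and 5064 CPM. In single oocytes it had 98.1, 4668 and 6979 CPM (lowest, median, highest) in Drp1_KO, with 3639 CPM the lowest outside tube 10, and 3389, 4339 and 6387 CPM in Drp1_WT. Its log2 fold change was 0.14 ± 0.16 (edgeR adjusted p = 0.758), and mouse d, the highest of all 9 mice, decided the sign: without it the value was -0.04. It was also -0.02 without the low-Dnm1l Drp1_WT tubes 11 to 15.

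Among the partners of the core, Padi6, a peptidylarginine deiminase family member, had mouse means of 4748, 3892 (4837 without tube 10), 5554 and 2905 CPM in Drp1_KO. In Drp1_WT its mouse means were 7200, 4781, 4478, 6072 and 5122 CPM. Oocytes had 113, 4547 and 7547 CPM (lowest, median, highest) in Drp1_KO, with 1413 CPM the lowest outside tube 10, and 2211, 5667 and 8094 CPM in Drp1_WT. Of 4 Drp1_KO mice, 3 were below the Drp1_WT mean, and the log2 fold change of -0.26 ± 0.17 did not pass (edgeR adjusted p = 0.604). Khdc3, the KH-domain protein also called Filia, had mouse means of 114, 119, 214 and 108 CPM in Drp1_KO and 213, 127, 193, 270 and 184 CPM in Drp1_WT. With tube 10 included, mice a, b and d were low and mouse c was as high as mouse 1. The log2 fold change was -0.34 ± 0.21 (edgeR adjusted p = 0.575). Without tube 10, mouse b had 149 CPM, above mouse 2, and the log2 fold change was -0.30 (edgeR adjusted p = 0.657). The Drp1_WT tubes 11 to 15 had 189 to 355 CPM of Khdc3 (median 267), against 91.9 to 234 CPM (median 159) in the other 13 Drp1_WT libraries, so the ranges overlap. Without these 5 libraries the log2 fold change of Khdc3 was -0.12 (edgeR adjusted p = 0.949). It was -0.58 without mouse c (edgeR p = 0.00816 before and 0.262 after adjustment), -0.46 without mouse 2 (edgeR adjusted p = 0.515) and -0.85 in limma-voom (adjusted p = 0.563), and negative under all 21 other settings.

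The remaining 3 members differed between the genotypes by less than the spread of mice, which does not show that they are equal. Nlrp2 had mouse means of 456 to 720 CPM in Drp1_KO and 573 to 859 CPM in Drp1_WT, with a log2 fold change of -0.11 ± 0.13 (edgeR adjusted p = 0.777). Nlrp4f had 2258 to 3005 CPM in Drp1_KO mice and 2549 to 3577 CPM in Drp1_WT mice, with a log2 fold change of -0.06 ± 0.12 (edgeR adjusted p = 0.864). Zbed3, a zinc-finger protein that also binds Axin, had 3416 to 5317 CPM in Drp1_KO mice (at most 4922 CPM without tube 10). It had 2998 to 5778 CPM in Drp1_WT mice, with a log2 fold change of 0.03 ± 0.17 (edgeR adjusted p = 0.963). The sign of Zbed3 turned without tube 10, to -0.06.

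In total 0 of 8 members passed an adjusted p of 0.05 in edgeR, where 0.0156% of the 12812 genes tested passed, and 0 did so in DESeq2 or limma-voom. At an unadjusted p of 0.05, 1 of 8 members (Tle6) was lower in edgeR, where 4.81% of all genes tested were lower. The count was 1 in DESeq2, where 776 of 18366 genes were lower, and 0 in limma-voom, where 507 of 10658 were. Members whose mice did not overlap between genotypes numbered 0, where 2.56% of all genes did not overlap. The median log2 fold change was -0.10 over the members and -0.00 over all genes tested. Mice d and 5, which hold tubes 27 to 30, were the lowest of their genotype for Tle6 and for Zbed3, and the highest for Ooep. Being both the lowest or both the highest held for 3 of 8 members and for 32.1% of all genes tested, a similar share. With the tube set as a term, the Tle6 difference had p = 0.00562 before adjustment and 0.262 after it (edgeR).

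**Figure D2:**
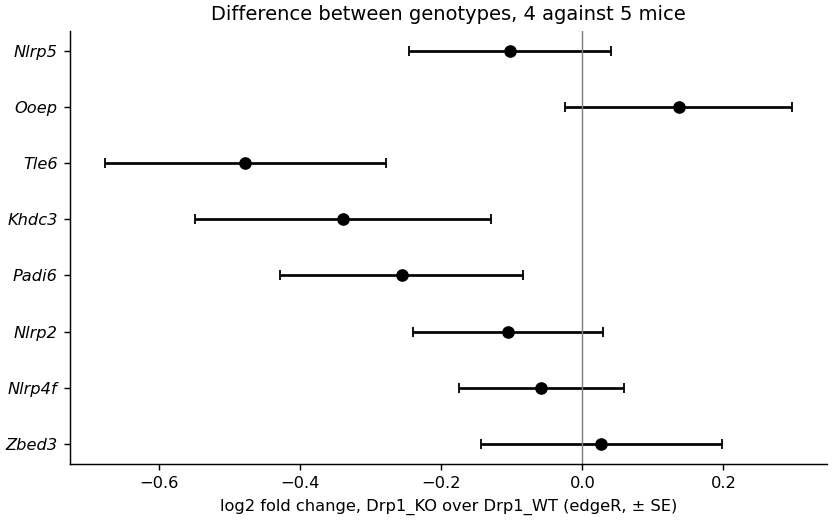
Log2 fold change of Drp1_KO over Drp1_WT for each member, with the standard error of the edgeR fit as bars, on counts summed per mouse (4 against 5 mice). Tle6 lies furthest from 0, at -0.48, and no member passed the adjusted threshold.

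Of 34 listed genes related to the complex, 31 were found in the table: proteins reported with it or with the lattices, other oocyte Nlrp genes, relatives of its members, and maternal-effect genes. In edgeR 0 of the 27 tested passed the adjusted threshold, with a median log2 fold change of 0.03, and 0 of 31 passed in DESeq2 and 0 of 26 in limma-voom. At an unadjusted p of 0.05, 2 were higher and 0 lower in edgeR, where 9.69% of all genes tested differed in either direction. DESeq2 and limma-voom each gave 2 higher and 0 lower. Over all genes, 738 were higher and 776 lower of 18366 in DESeq2, and 561 higher and 507 lower of 10658 in limma-voom. Ube2d3, a ubiquitin-conjugating enzyme, had 1881 ± 186 CPM in Drp1_KO mice and 1576 ± 121 CPM in Drp1_WT mice, with a log2 fold change of 0.32 ± 0.12 (edgeR p = 0.0177 before and 0.499 after adjustment). Nlrp9c, another oocyte NLR gene, had 1670 ± 181 CPM in Drp1_KO mice and 1339 ± 227 CPM in Drp1_WT mice, with a log2 fold change of 0.39 ± 0.16 (edgeR p = 0.0258 before and 0.499 after adjustment). Neither passed the unadjusted threshold without tube 10, where 0 of the 27 did. Of all 12806 genes tested in that setting, 485 were higher and 609 lower at that threshold.

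The relative abundance of the 8 transcripts was taken as each gene's counts per kilobase of exon union, as a percentage of the sum over the 8. Averaged over mice, Ooep made up 28.7% ± 8.37 in Drp1_KO and 25.6% ± 6.30 in Drp1_WT. Zbed3 made up 26.8% ± 6.44 and 23.6% ± 3.98, and Padi6 21.3% ± 4.00 and 24.9% ± 2.82, in Drp1_KO and in Drp1_WT mice. All Drp1_KO means of shares include tube 10 of mouse b, where Zbed3 made up 82.1% and Padi6 0.893%. Over single oocytes, the median share of Zbed3 was 24.5% in Drp1_KO and 23.5% in Drp1_WT. Nlrp4f made up 9.13% ± 0.640 in Drp1_KO mice and 8.72% ± 0.511 in Drp1_WT mice. Tle6 made up 6.10% ± 1.29 in Drp1_KO mice and 8.41% ± 1.33 in Drp1_WT mice, Nlrp5 5.02% ± 0.955 and 5.29% ± 0.447, Nlrp2 2.14% ± 0.319 and 2.24% ± 0.218, and Khdc3 0.848% ± 0.229 and 1.11% ± 0.240, in the same order of genotypes (SD, n = 4 and 5). The mice of the 2 genotypes overlapped in every share, and no share was tested. The top place per kilobase was held by Ooep in 17 oocytes (11 Drp1_KO, 6 Drp1_WT), by Padi6 in 14 (4 Drp1_KO, 10 Drp1_WT) and by Zbed3 in 5 (3 Drp1_KO, 2 Drp1_WT). Khdc3 was last in 35 oocytes. These shares describe transcripts, not protein, and move with the length used, since Ooep made up 43.8% of the sum over all oocytes when the longest coding sequence was used in place of the exon union, against 27.2% with it.

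**Figure D3:**
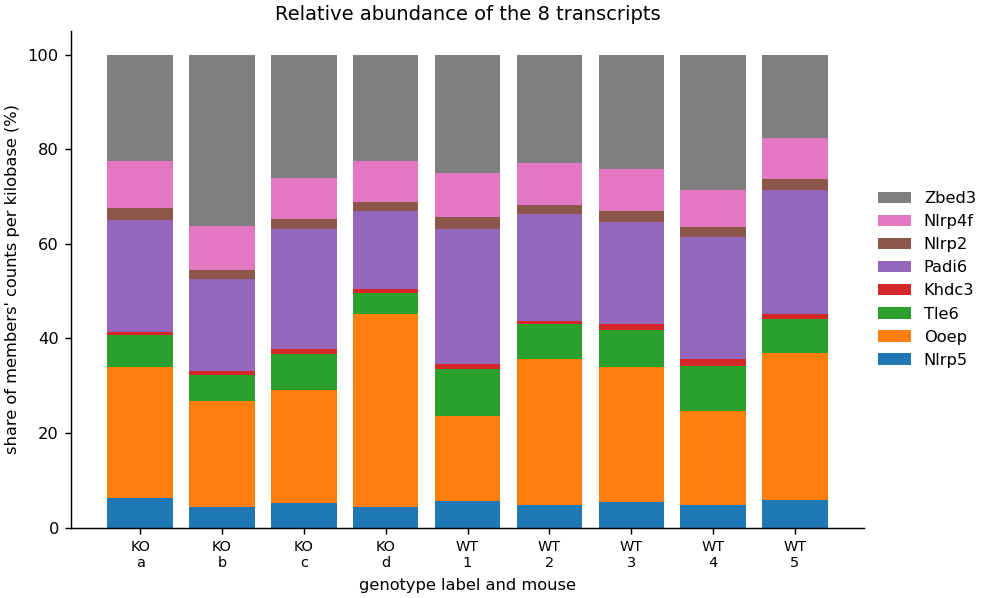
Share of each transcript in the summed counts per kilobase of the 8 members (percent), averaged over the oocytes of each mouse, with Drp1_KO mice left and Drp1_WT mice right. Ooep takes 40.8% in mouse d, and Zbed3 takes 36.1% in mouse b, whose tube 10 is included.

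Between oocytes, without tube 10, the level of Khdc3 varied 12.3-fold, Tle6 7.31-fold, Padi6 5.73-fold, Nlrp2 3.48-fold, Nlrp5 3.13-fold, Zbed3 2.81-fold, Nlrp4f 2.35-fold and Ooep 2.06-fold. Counting error was small beside this, with a coefficient of variation (CV) of 0.58 to 3.28% at the median count. CVs over the 35 oocytes were 45.3% for Khdc3, 38.9% for Tle6, 32.3% for Padi6, 25.9% for Nlrp5, 23.1% for Nlrp2, 22.5% for Zbed3, 21.3% for Nlrp4f and 18.8% for Ooep. Over 3602 genes of at least 50 CPM the median CV was 18.5%, with 5 to 95% of genes between 10.6 and 34.6%, so Khdc3 and Tle6 lay above that range. Differences between mouse means held 68.6% of the log2 sum of squares of Zbed3, 52.1% of that of Tle6 and 31.0 to 43.6% of the others. Within these shares, the difference between genotypes held 0.67% in Zbed3, 14.3% in Tle6 and 11.9% in Khdc3. With 9 mice over 35 oocytes, a sizeable share arises even where mice do not differ, and the shares were not tested.

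Tle6 and Padi6 varied together. Spearman's rho of log2(CPM + 1) was 0.93 over 36 oocytes, 0.96 in the 17 Drp1_KO oocytes outside tube 10 and 0.92 in the 18 Drp1_WT oocytes. Without tube 10, their ratio per kilobase stayed within 1.86-fold while the genes themselves ranged 7.31-fold and 5.73-fold. In tube 10 the ratio was 0.0967, below all other oocytes. Outside it, the ratio was 0.287 ± 0.00787 in Drp1_KO mice (0.279 to 0.294) and 0.337 ± 0.0391 in Drp1_WT mice (0.277 to 0.372). In single oocytes outside tube 10 it had a lowest, median and highest value of 0.244, 0.284 and 0.344 in Drp1_KO and 0.232, 0.344 and 0.433 in Drp1_WT. A rho as high was held by 0.0214% of all pairs among 3602 genes, and by 0.0354% without tube 10. Tle6 with Padi6 had the highest rho of the 28 member pairs, so this share is not that of a pair chosen beforehand. Among 3601 genes Tle6 ranked 3rd for Padi6, and Padi6 ranked 21st for Tle6.

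Nlrp5 and Nlrp2 were each other's nearest gene. Of 3601 genes, Nlrp2 had the highest rho with Nlrp5 and Nlrp5 the highest with Nlrp2, 0.89 over all oocytes and 0.88 without tube 10. Among all pairs of the 3602 genes, 0.173% had a rho as high, and 0.260% without tube 10. This pair, too, was among the highest of the member pairs, so these shares are not those of a pair chosen beforehand. With each mouse's mean subtracted, rho was 0.89 without tube 10. The ratio of Nlrp5 to Nlrp2 per kilobase was 1.93, 2.30 and 2.78 (lowest, median, highest) in Drp1_KO oocytes outside tube 10 and 1.92, 2.31 and 2.92 in Drp1_WT oocytes, a 1.53-fold range, and 3.12 in tube 10. Between genotypes the mouse means were 2.32 ± 0.118 in Drp1_KO and 2.37 ± 0.122 in Drp1_WT. No 100-base window of the longest Nlrp2 transcript was found letter for letter in the Nlrp5 transcripts. Sharing of reads that match with differences was not tested. The genes are on opposite strands of chromosome 7, but the libraries keep no strand.

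**Figure D4:**
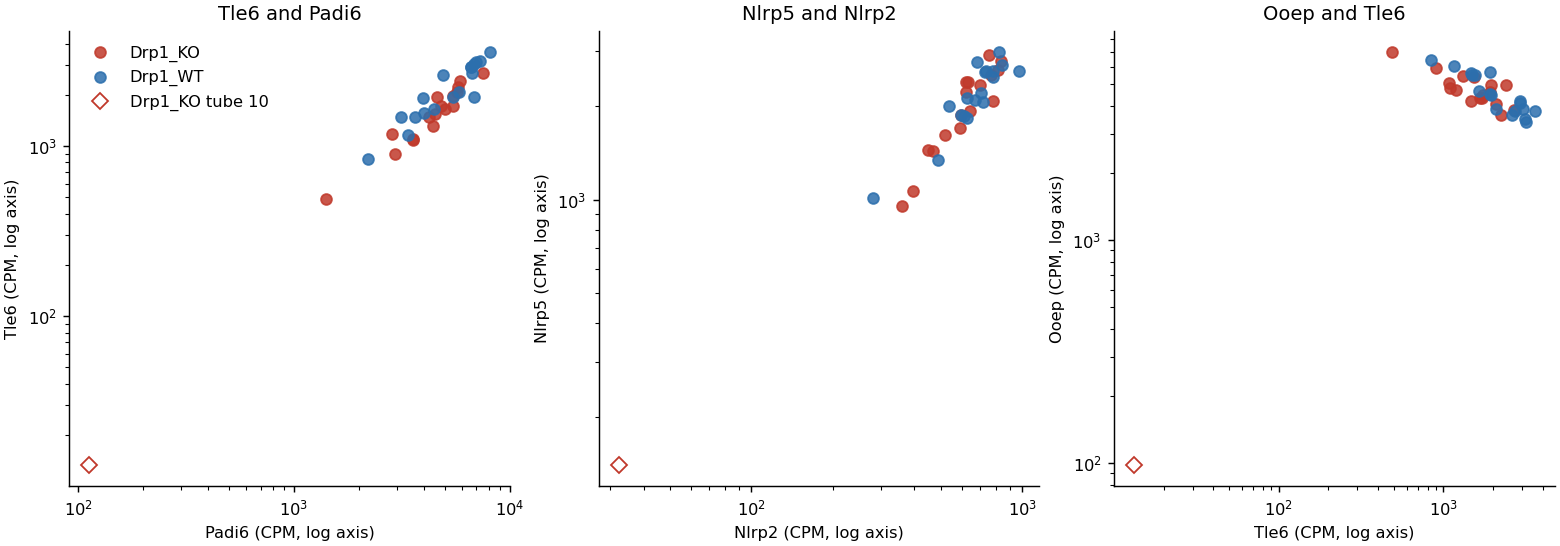
Levels of 3 pairs of members in single oocytes (CPM, log axes), Drp1_KO in red, Drp1_WT in blue, and tube 10 of mouse b as an open diamond. Tle6 follows Padi6 and Nlrp5 follows Nlrp2 in both genotypes, with tube 10 at the low end, while Ooep falls as Tle6 rises in the other 35 oocytes.

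Ooep varied against the other members before any correction for length. All 7 of its pairs with the other members were negative, from -0.75 with Zbed3 to -0.34, with a median of -0.55, whereas the 21 pairs without Ooep had a median of 0.53 and 1 negative value, -0.07 between Khdc3 and Nlrp4f. With Tle6, rho was -0.68 over 36 oocytes and -0.83 without tube 10, where it was -0.67 in Drp1_KO and -0.90 in Drp1_WT. Pearson's r over all 36 oocytes was 0.74, and both genes were at their lowest in tube 10. The ratio of Ooep to Tle6 per kilobase spread 13.5-fold: 2.07, 3.77 and 20.6 (lowest, median, highest) in Drp1_KO oocytes outside tube 10 and 1.53, 3.00 and 11.05 in Drp1_WT oocytes. The transcripts of these 2 core genes thus kept no fixed ratio in either genotype.

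Over all 28 pairs the median rho was 0.42, against 0.02 over the 6485401 pairs of the 3602 genes. Strong correlations were common in these data: 22.3% of all pairs reached 0.5 in size, against 15 of 28 member pairs. What the points share includes mouse, library and an oocyte-wide trend on gene length. This trend was taken, in each oocyte, as the Spearman correlation across genes between coding length and the deviation of log2 CPM from the gene's mean. It ran from -0.36 to 0.18 in Drp1_KO oocytes and from -0.32 to 0.36 in Drp1_WT oocytes. Over 35 oocytes it had a rho of 0.79 with Tle6 and -0.79 with Ooep, and the mitochondrial share of counts had -0.79 with Tle6 and 0.78 with Ooep. The summed stromal, endothelial and epithelial markers had 0.71 with Tle6 and -0.74 with Ooep, the number of genes detected 0.66 and -0.51, and the summed oocyte markers 0.63 and -0.61. The part of these measures in the covariation was not tested, apart from the trend on length. Total counts had weaker values, 0.27 with Tle6 and -0.25 with Ooep. Ooep has a coding sequence of 492 bases, Zbed3 of 684, Khdc3 of 1320, Tle6 of 1743, Padi6 of 2046, Nlrp4f of 2811, Nlrp2 of 3138 and Nlrp5 of 3333.

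Removing each oocyte's trend on coding length, without tube 10, left the 2 tight pairs at 0.88 for Tle6 with Padi6 and 0.82 for Nlrp5 with Nlrp2. Among all pairs of 3590 genes, 0.117% and 0.550% then had a rho as high as these, in that order, and neither pair was chosen beforehand. Ooep with Tle6 was then -0.72. The negative values of Ooep with Nlrp5 and with Nlrp2 shrank, to -0.22 and -0.04 against -0.61 and -0.60 before. Ooep with Nlrp4f turned positive, 0.12 against -0.33 before. Tle6 then had 0.74 with Khdc3 and 0.64 with Zbed3, Nlrp2 had 0.60 with Nlrp4f, and Khdc3 with Nlrp4f was -0.40. The share of pairs of at least 0.5 in size was then 20.8% over all genes, against 12 of 28 member pairs.

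**Figure D5:**
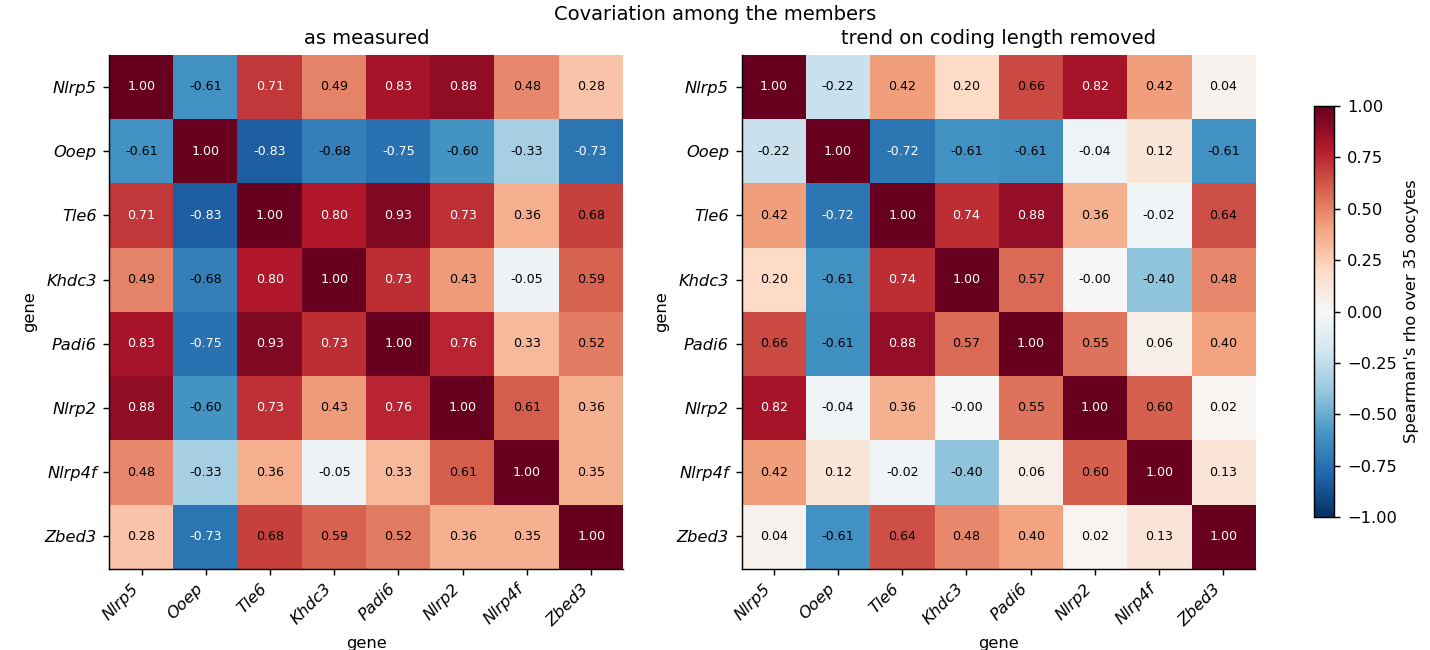
Spearman's rho between members over 35 oocytes (without tube 10), from log2(CPM + 1), as measured at the left and with each oocyte's trend on coding length removed at the right. Ooep is negative with every other member at the left, and Tle6 with Padi6 (0.88) and Nlrp5 with Nlrp2 (0.82) keep the highest values at the right.

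The genes most like the 8 members as a set, by rho with the mean of their standardised log2 levels over 36 oocytes, were Arhgef16 (0.94), Abcf3 (0.93), Racgap1 (0.93), Abhd4 (0.92) and Ecd (0.92). Racgap1 is a GTPase-activating protein of the cytokinetic spindle midzone. Among the most opposite were Cetn3 (-0.94), Rpa3 (-0.94), Mob4 (-0.93) and Pigf (-0.93), which include a centrin and the small subunit of replication protein A. The median coding length was 465 bases in the lowest 5% of genes by this rho and 1656 bases in the highest 5%, against 1248 bases over 3582 genes. Across genes, which are not independent, this rho had a Spearman correlation of 0.40 with coding length. Of single members, Tle6 followed the mean of the other 7 most closely (rho 0.87), then Nlrp2 (0.84), Padi6 (0.80), Nlrp5 (0.74), Khdc3 (0.54), Nlrp4f (0.36), Zbed3 (0.35) and Ooep (-0.67).

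Tube 10 of mouse b differed from the other libraries in most genes, and the members' levels there are given as values of that library. In it, 6 of 8 members lay below all other 35 libraries, where 56.2% of 3602 genes did so. Ooep had 98.1 CPM there, against 3389 CPM in the next lowest library, a 34.5-fold gap. Tle6 had 13.3 CPM against 489 CPM (36.8-fold), Padi6 113 CPM against 1413 CPM (12.6-fold), Nlrp2 32.5 CPM against 281 CPM (8.64-fold) and Nlrp5 140 CPM against 954 CPM (6.81-fold). Khdc3 had a single count. Zbed3 moved the other way, with 9126 CPM against at most 6147 CPM elsewhere, a place above all others that 20.7% of genes shared, and Nlrp4f, with 2934 CPM, stayed within the range of the other libraries. Zbed3 thus made up 82.1% and Nlrp4f 15.2% of the members' counts per kilobase in that library. Its mitochondrial share of counts was 5.61%, against 0.169 to 0.599% in the other Drp1_KO oocytes and 0.140 to 0.669% in Drp1_WT oocytes, its immune markers summed to 707 CPM, and 11350 genes were detected. The part of these in its levels was not tested. The other 4 oocytes of mouse b had 1541 to 1929 CPM of Tle6 and 4352 to 5396 CPM of Ooep, so these low values were those of 1 library of that mouse.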

How the data were processed

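Single oocytes were lysed and sequenced one by one as single-end reads of 100 bases from SMARTer cDNA and Nextera XT libraries, per the labels' protocols. Per the submitters' processing notes, STAR, featureCounts, Subread 1.5.2 and Picard were used on GRCm38, with no order given. The authors deposited raw counts per Ensembl gene for 36 oocytes. The counting of strand and of reads with several matches is not given in the sources used here, and the kits keep no strand. No molecular identifiers are named, so PCR copies may count as reads. The counting error given as a CV does not cover such copies.

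Of 21968 IDs, 21876 matched GENCODE M21, and 3535 genes had 0 counts. CPM used each oocyte's total, and TPM the exon union. Counts were summed per mouse (4 Drp1_KO, 5 Drp1_WT) and fitted with edgeR 4.0.16 (R 4.3.3; TMM factors, robust quasi-likelihood, filter by genotype, 12812 genes) at a Benjamini-Hochberg adjusted p of 0.05. DESeq2 1.42.0 and limma 3.58.1 (voom on oocytes, mouse as a random effect) were alternatives, as were other factors, filters, libraries and mice left out. Correlations used log2(CPM + 1), and their backgrounds used genes of at least 50 CPM (scipy 1.17.1). The trend on coding or transcript length was a cubic in log2 length, removed per oocyte, which was added after seeing the data. Scripts were tested on simulated data.

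Named genes were the 8 members, Dnm1l, the 5 genes most and the 5 least like the members, and related genes with an unadjusted p under 0.05. Of the 5 least like, 1 is not reported here. Others were named after their values were seen. The members and lists were chosen with earlier results of these data known.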

Additional observations from a re-analysis of the deposited data

Results flagged for a closer look

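Among 34 groups of 4 or more values examined for a sample far from the others, 2 were set apart, and chance sets apart about 1 in 20. Mean Khdc3 in mouse c of Drp1_KO was 213.7 CPM, while the other 3 Drp1_KO mice had 108 to 119 CPM. The 119 CPM is that of mouse b and includes its tube 10, which had 0.204 CPM of Khdc3. Without tube 10, mouse b had 149 CPM, and whether mouse c would still be set apart was not tested. Mean Nlrp4f in mouse 1 of Drp1_WT was 3577 CPM, while the other 4 Drp1_WT mice had 2549 to 2841 CPM.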

How the results depend on the processing

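Under every alternative 0 of 8 members passed the adjusted threshold. Over all genes 2 passed in edgeR, 38 in DESeq2, 9 in limma-voom, 4 with tubes 1 to 15 alone, and 1 to 3 with each mouse left out. The sign turned for values near 0: Nlrp5 was 0.00849 with tubes 1 to 15 alone; Ooep was -0.12 in limma-voom, -0.0161 without tubes 11 to 15 of Drp1_WT and -0.0389 without mouse d (range with each mouse left out -0.0389 to 0.221); Nlrp4f was 0.0112 in limma-voom and 0.0214 without mouse 1; Zbed3 was -0.0028 with tubes 1 to 15 alone, -0.0633 without tube 10, and -0.0663, -0.00655 and -0.0804 without mouse b, 2 or 5 (range with each mouse left out -0.0804 to 0.115). Their cause was not tested. Shares of the 8, over all oocytes, moved with the length used. With the longest transcript, Nlrp5 was 6.32% and Tle6 9.79%. With the longest coding sequence, they were Nlrp5 2.88%, Ooep 43.8%, Tle6 4.97%, Khdc3 0.594%, Padi6 11.02%, Nlrp2 0.941%, Nlrp4f 4.65% and Zbed3 31.1%. With unshared exon bases alone, Khdc3 was 1.60%. The median rho of 28 pairs was 0.71 with Pearson's r, 0.16 with each mouse's mean subtracted (0.30 also without tube 10), 0.26 with TMM factors, 0.26 and 0.23 with the trend on transcript or coding length removed, and 0.23 and 0.16 with these also without tube 10. Ooep with Tle6 was 0.74 with Pearson's r, -0.14 with each mouse's mean subtracted (-0.77 also without tube 10), -0.83 without tube 10, -0.83 without it and with the trend on transcript length removed, and -0.90 in Drp1_WT alone. Tle6 with Padi6 and Nlrp5 with Nlrp2 moved by less than 0.1 under each alternative. Of the 5 genes most like the members, 1 was among the 5 highest without tube 10 and 0 with each mouse's mean subtracted, and of the 5 least like, 2 and 2. No paired analysis was possible because mice of the 2 genotypes share no number. Khdc3 ranged from -0.85 to -0.06 over its alternatives. Counting error at the median count was a CV of 0.58 to 3.28%; other limits of depth were not tested.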

Other observations

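An oocyte gene of the Nlrp family and 2 maternal-effect genes are given here, none of which passed the adjusted threshold. Nlrp14, an oocyte NLR gene, had 8825 ± 1487 CPM in Drp1_KO mice and 9636 ± 895 CPM in Drp1_WT mice (SD, n = 4 and 5), with a log2 fold change of -0.04 ± 0.12 (edgeR adjusted p = 0.921). Dppa3, the maternal factor also called Stella, had 3952 ± 707 CPM in Drp1_KO mice and 3244 ± 615 CPM in Drp1_WT mice, with a log2 fold change of 0.37 ± 0.17 (edgeR adjusted p = 0.522). Zar1, which acts on maternal mRNA, had 646 ± 162 CPM in Drp1_KO mice and 903 ± 224 CPM in Drp1_WT mice, with a log2 fold change of -0.36 ± 0.18 (edgeR adjusted p = 0.525). Among the relatives of Padi6, Padi4 reached 19.7 CPM in its highest oocyte, and Padi1, Padi2 and Padi3 at most 3.60 CPM. These genes were named after their values were seen.

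The highest rho of Ooep among 3601 genes was 0.93, with the ribosomal protein gene Rps4x, and that of Tle6 was 0.96, with Atp5a1, a subunit of ATP synthase. These partners, too, were named after their values were seen, over 36 oocytes that share mice, libraries and the trend on coding length.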
